A study of Mus musculus with 120 samples.

Results

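The genes described here encode the machinery with which a nerve terminal releases transmitter: 49 coding genes listed by name for their function, of 21631 coding genes on X and the autosomes. The list holds 13 calcium sensors (synaptotagmins and Doc2), 10 SNARE proteins with their regulators, 16 priming factors and active zone scaffolds, and 10 vesicle proteins and transporters. A called window was taken to belong to a gene when it overlapped the gene body or lay within 10 kb of it. Of the 8961 windows called by the authors, 32 belonged to 22 of these genes (44.9%, beside 26.7% of all coding genes), and 27 of the genes had none. The 49 genes are longer than most, with a median of 77 kb against 17.3 kb for coding genes. Per Mb of gene body with 10 kb on each side they had fewer windows, 3.39 against 4.22 for coding genes.

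Whole-genome bisulfite libraries were made from the hippocampus and the blood of App-NLGF and wild-type mice that were 3, 8 or 24 weeks old. App-NLGF is a knock-in model: the endogenous App gene carries a humanised amyloid-beta segment with familial Alzheimer mutations, and plaques form without excess precursor protein. Each tissue, genotype and age is a group of 10 libraries, 5 from each sex, 120 libraries in all, and the authors set the genotypes against each other inside each tissue and age, adjusting for sex. The labels give neither strain nor zygosity, and do not say whether blood and hippocampus came from the same mice. The values are differences in percentage points of methylation (points below) over windows of 1 kb, read as App-NLGF minus wild type from the name of the comparison, so "higher" means more methylated in App-NLGF. Levels, read coverage and single libraries were not analysed here, so no spread between animals and no depth can be given, and the tissues could not be checked against cell type markers. Both tissues are mixtures, and a change in the makeup of cells cannot be told apart from a change within them.

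At a resting terminal, synapsins hold vesicles in clusters and active zone scaffolds (RIM, RIM-BP, bassoon, piccolo, ELKS and liprin-alpha proteins) place them beside calcium channels. Munc13 and CAPS proteins prime them, the SNAREs syntaxin, SNAP-25 and synaptobrevin pull the membranes together, and synaptotagmin triggers fusion when calcium enters. Methylation of cytosine in CpG pairs is usually low at CpG-rich gene starts and high in gene bodies.

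The promoters of 5 genes are shown first because a called window overlapped them, which happened in blood at week 8 and in no other list. They run from 250 bases before to 50 bases after a RefSeq transcript start, on GRCm38.p6, 5′ to 3′ on the strand of the gene, with every CpG in capitals.
Syt2, internal start, plus strand, chr1:134709050-134709349: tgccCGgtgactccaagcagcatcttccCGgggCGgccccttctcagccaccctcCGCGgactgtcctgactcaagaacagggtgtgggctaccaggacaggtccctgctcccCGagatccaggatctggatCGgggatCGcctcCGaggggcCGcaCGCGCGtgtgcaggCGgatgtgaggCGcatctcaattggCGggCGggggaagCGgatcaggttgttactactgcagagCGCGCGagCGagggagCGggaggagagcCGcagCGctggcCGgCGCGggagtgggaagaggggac
Syt6, plus strand, chr3:103575032-103575331: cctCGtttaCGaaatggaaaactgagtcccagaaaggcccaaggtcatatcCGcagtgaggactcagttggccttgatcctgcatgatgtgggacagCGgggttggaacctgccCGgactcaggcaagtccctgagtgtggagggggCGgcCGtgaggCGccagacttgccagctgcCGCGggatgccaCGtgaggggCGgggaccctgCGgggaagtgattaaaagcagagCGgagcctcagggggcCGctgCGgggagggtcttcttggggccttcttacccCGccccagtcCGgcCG
Syt3, plus strand, chr7:44383876-44384175: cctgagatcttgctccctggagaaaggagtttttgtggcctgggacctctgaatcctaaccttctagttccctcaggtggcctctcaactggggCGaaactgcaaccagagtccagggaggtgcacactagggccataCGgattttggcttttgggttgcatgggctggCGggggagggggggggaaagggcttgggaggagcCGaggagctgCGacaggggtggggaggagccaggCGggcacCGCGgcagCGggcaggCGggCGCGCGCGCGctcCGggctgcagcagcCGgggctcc
Ppfia3, minus strand, chr7:45366970-45367269: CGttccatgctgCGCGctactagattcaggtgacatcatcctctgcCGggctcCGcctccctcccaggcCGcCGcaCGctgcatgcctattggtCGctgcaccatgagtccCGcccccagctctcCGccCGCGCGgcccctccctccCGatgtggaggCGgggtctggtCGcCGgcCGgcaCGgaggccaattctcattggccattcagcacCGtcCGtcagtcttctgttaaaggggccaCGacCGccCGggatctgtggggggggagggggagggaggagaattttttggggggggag
Syt1, minus strand, chr10:109010926-109011225: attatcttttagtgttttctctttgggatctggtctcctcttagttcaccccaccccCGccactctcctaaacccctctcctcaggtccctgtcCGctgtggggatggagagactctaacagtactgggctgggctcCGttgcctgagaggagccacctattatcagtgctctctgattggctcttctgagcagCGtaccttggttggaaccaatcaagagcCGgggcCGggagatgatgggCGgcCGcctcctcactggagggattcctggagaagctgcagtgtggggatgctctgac

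These stretches differ widely in CpG content. That of Syt2 holds 28 CpG in 300 bases with a GC content of 68.3%, that of Ppfia3 25 CpG, that of Syt6 19 CpG and that of Syt3 17 CpG, 14 of them in its last 100 bases. The Syt1 stretch holds 8 CpG with a GC content of 56.7%. The 1 kb windows, all lower in App-NLGF blood at week 8, covered these stretches to different extents. Those of Syt2 and Syt6 took in all 300 bases, that of Syt3 175 bases with 16 of the 17 CpG, and that of Syt1 75 bases with 3 of the 8 CpG. The Ppfia3 window took in the last 31 bases, which hold 0 of the 25 CpG, so its value measures CpG further into the gene and not the printed ones.

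The plot of all member windows sets out every value by gene and role.

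**Figure D1:**
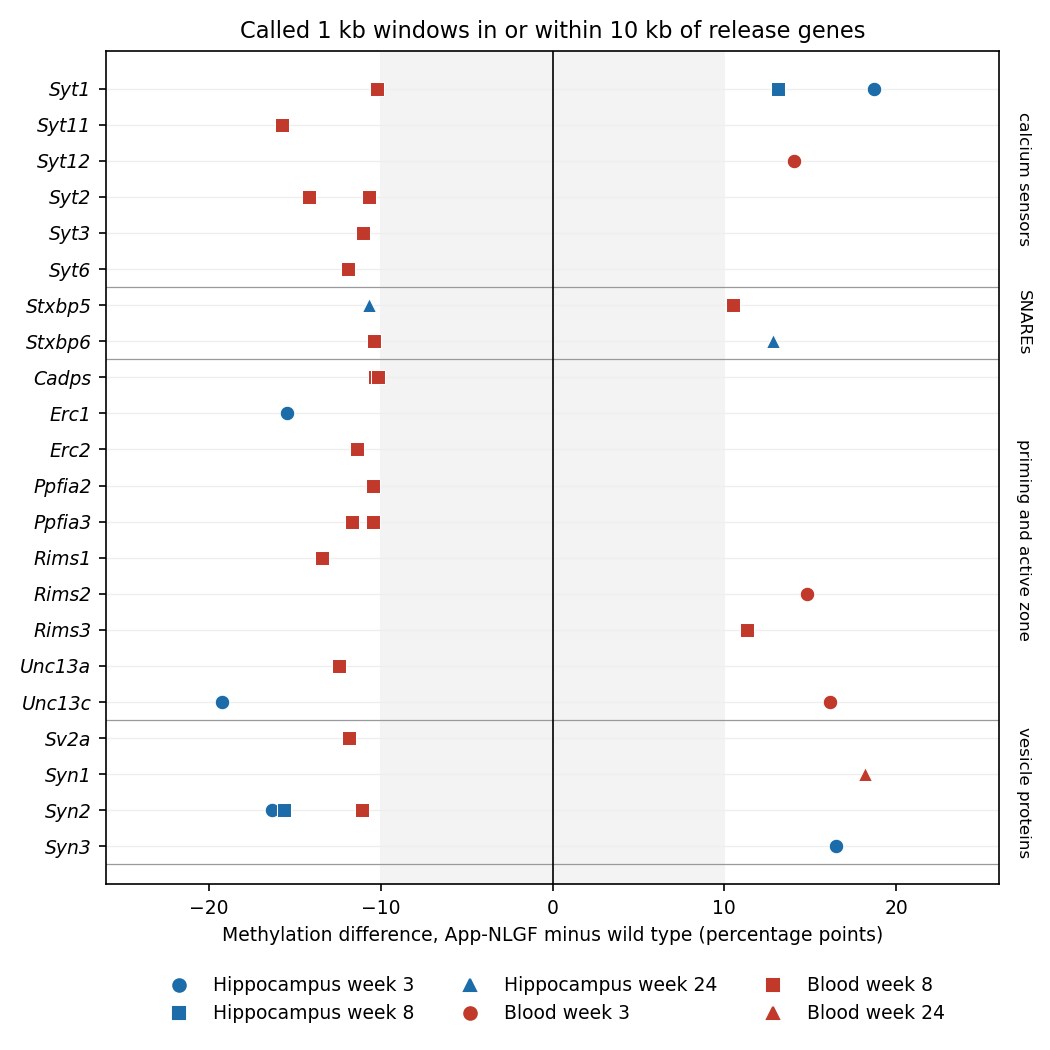
Methylation difference (percentage points, App-NLGF minus wild type, x axis) of each of the 32 called windows, by gene (y axis) and role, with colour for tissue and symbol for week. The grey band marks differences under 10 points, which the list does not hold. Blood week 8 squares sit mostly on the left, while hippocampal symbols lie on both sides.

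In hippocampus at week 3 there were 5 of the 49 genes with a window, 10.2%, beside 2.6% of all coding genes. The release genes are long, with a median of 77 kb against 17.3 kb, and long genes hold more windows. Per Mb of gene body with 10 kb on each side, the members had 0.529 windows and all coding genes 0.395. All 5 windows lay in genes over 50 kb, and 4 of the 14 members over 200 kb had one, beside 15.2% of coding genes over 200 kb. Of the windows 2 were higher and 3 lower, where 70.5% of the whole list was lower.

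Both directions occurred among the release genes at this age, and within a single role only among the vesicle proteins. Syt1, the calcium sensor of fast synchronous release, was higher by 18.7 points in the authors' deposited table (chr10:108938001-108939000, adjusted p = 0.0633), 70.1 kb into the gene from the nearest listed start. Unc13c, which encodes the priming factor Munc13-3, stood at -19.2 points in the authors' deposited table (chr9:73901001-73902000, adjusted p = 0.0463), the 145th largest of the 1024 windows of this list. Erc1, an ELKS scaffold of the active zone, stood at -15.5 points in the authors' deposited table (chr6:119736001-119737000, adjusted p = 0.0557), 40.3% of the way along its body. The synapsin genes, whose products tether vesicles to each other and to actin, had windows of either sign. Syn2 was at -16.4 points (chr6:115258001-115259000, adjusted p = 0.0224) and Syn3 at 16.5 points (chr10:86403001-86404000, adjusted p = 0.0774) in the authors' deposited table. The Syn2 window also lies 5.8 kb from Timp4, a protease inhibitor gene nested in Syn2. The median size of the 5 differences was 16.5 points against 13.8 points for the whole list.

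At week 8, 2 of 49 genes, 4.08%, had a hippocampal window, beside 1.74% of coding genes, and the same Syt1 and Syn2 were those 2 genes. The signs were those of week 3, at other places in the genes. Syt1 was higher by 13.2 points in the authors' deposited table (chr10:108712001-108713000, adjusted p = 0.0607), in a window 225 kb from that of week 3. Syn2 was lower, at -15.6 points in the authors' deposited table (chr6:115187001-115188000, adjusted p = 0.0596), 70.0 kb from its window of week 3. The windows per Mb were 0.212 for the members and 0.268 for coding genes. Animals of the 2 ages were different groups, and whether the sign was shared beyond what long genes show was not tested.

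At week 24 neither Syt1 nor Syn2 was in the list, and 2 SNARE regulators were (4.08% of the 49, beside 2.43% of coding genes). Stxbp5 encodes tomosyn, an inhibitor that occupies the syntaxin and SNAP-25 pair, and Stxbp6 encodes amisyn, which has a similar SNARE-like domain. Stxbp5 was at -10.7 points (chr10:9825001-9826000, adjusted p = 0.0435) and Stxbp6 at 12.9 points (chr12:45006001-45007000, adjusted p = 0.0485) in the authors' deposited table. Both windows lay deep in the gene, 75.0 kb and 67.5 kb from the listed start. The 863rd place of the Stxbp5 window by size among 949 puts it close to the 10 points that every listed window reaches.

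Across the 3 ages the hippocampus thus had 9 windows in 7 release genes, 14.3% of the 49, beside 6.27% of coding genes and 34.5% of coding genes over 200 kb. All 9 lay inside gene bodies. For the 8 windows in genes with a listed start, the distance to that start was 19.0 kb to 296 kb. Adjusted p ran from 0.0224 to 0.0774, with 4 of 9 under 0.05, where 37.3% of all hippocampal windows were. All but 6.27% of coding genes lacked a hippocampal window at all 3 ages. Genes for the core fusion machinery also had none: Snap25, Stx1a, Vamp1, Vamp2, the complexins Cplx1 and Cplx2, and Nsf, which takes spent SNARE complexes apart. Nor did Bsn and Pclo, the bassoon and piccolo scaffolds, or the vesicular glutamate transporters Slc17a6 and Slc17a7. A gene without a window did not differ by the authors' criteria or was not covered well enough, and these cannot be told apart here. The 19 members under 50 kb, Stx1a, Vamp1, Vamp2 and Cplx1 among them, had no hippocampal window. Of coding genes of that length 0.887% to 1.47% had one at each of the 3 ages.

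**Figure D2:**
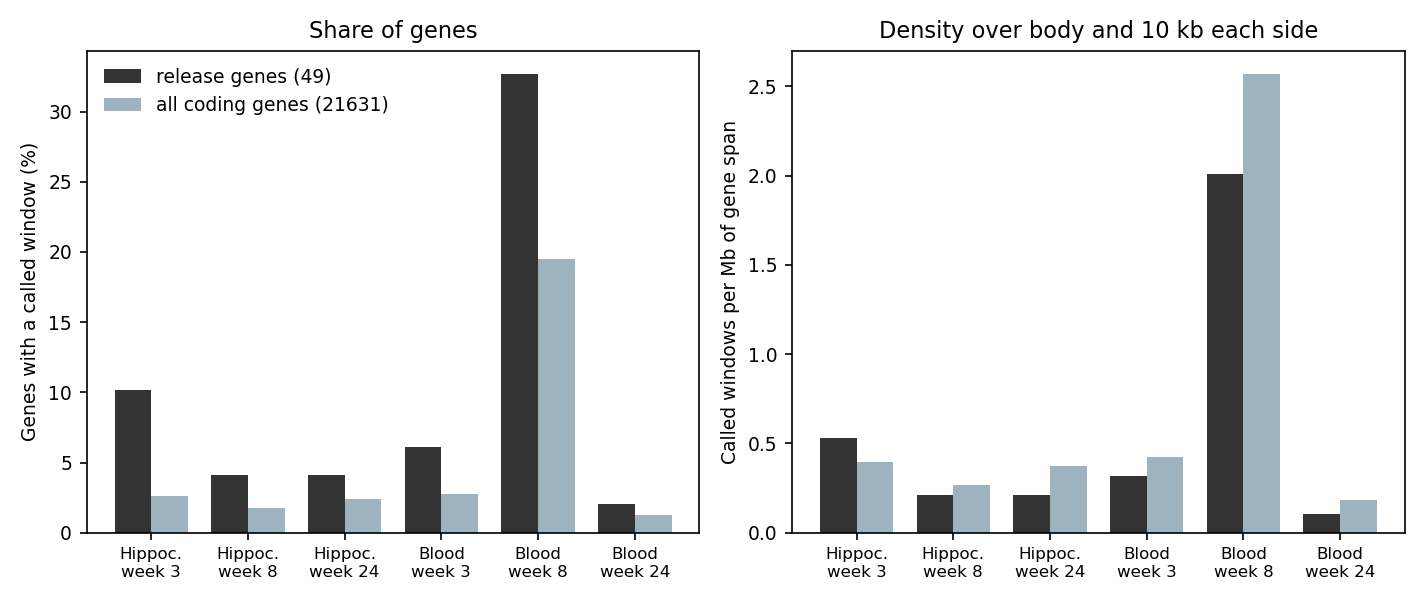
Left: percentage of genes with a called window in each of the 6 lists, for the 49 release genes (dark bars) and 21631 coding genes (light bars). Right: called windows per Mb of gene body with 10 kb on each side. The dark bars are taller in all 6 lists on the left, and on the right only in hippocampus at week 3 (0.529 against 0.395 per Mb).

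In blood at week 3, 3 of 49 genes had a window, 6.12% beside 2.79% of coding genes, and all 3 were higher, as were 63.2% of the whole list. Unc13c, lower in hippocampus at this age, was higher by 16.2 points in blood in the authors' deposited table (chr9:73786001-73787000, adjusted p = 0.00834), 114 kb from the hippocampal window. Rims2, a scaffold that binds calcium channels and Munc13, was higher by 14.8 points in the authors' deposited table (chr15:39558001-39559000, adjusted p = 0.0441). Syt12, a synaptotagmin that does not bind calcium, was higher by 14.0 points in the authors' deposited table (chr19:4457001-4458000, adjusted p = 0.0418). All 3 windows lay in the gene body. Density was 0.318 windows per Mb against 0.426 for coding genes.

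Blood at week 8 held most of the windows: 19 windows in 16 of the 49 genes, 32.7%, beside 19.5% of coding genes. Per Mb the members had fewer windows than coding genes, 2.01 against 2.57. Of the 19 windows 17 were lower, and 88.9% of the whole list was lower. Sizes were small, with a median of 11.1 points against 11.7 points for the list, and 13 of 19 had an adjusted p under 0.05, where 71.1% of the list did.

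At gene starts, blood at week 8 had 8 of its 19 member windows, 6 of them at synaptotagmins. Of the 39 release genes with a listed start, 7 (17.9%) had a lower window within 1 kb of one, beside 10.1% of 17274 coding genes with a listed start. All 8 windows were lower, which is the usual direction at starts in this list. Of 1746 coding genes with a window within 1 kb of a start, 1743 had a lower one and 3 a higher one. Of the 7 release genes 5 were synaptotagmins. Syt9 and Syt10 also had a listed start and had no window. Of the 13 calcium sensors 5 (38.5%) had a window in this list, beside 19.5% of coding genes. Of 11 further calcium sensors outside the 49 genes, 0 had one. Syt11, a synaptotagmin without calcium binding that acts in membrane traffic, showed the largest of the 8 start windows, -15.8 points in the authors' deposited table (chr3:88771001-88772000, adjusted p = 0.00397), 0.599 kb past its listed start. That start is internal, and the window lies 12.0% of the way along the gene body. Syt2, a close relative of Syt1 and likewise a fast sensor, had adjoining windows of -10.7 points (chr1:134708001-134709000, adjusted p = 0.00768) and -14.2 points (chr1:134709001-134710000, adjusted p = 0.0125) in the authors' deposited table. They flank and cover its internal start, whose promoter is the one printed first above, and the first start of Syt2 had no window.

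The remaining start windows stood between -11.9 and -10.2 points in the authors' deposited table. Syt6 was at -11.9 points (chr3:103575001-103576000, adjusted p = 0.00484) and Syt3 at -11.0 points (chr7:44384001-44385000, adjusted p = 0.00283) in the authors' deposited table, in windows that hold the start itself. The Syt3 window also overlaps the neighbouring coding gene 1700008O03Rik. Syt1 was at -10.2 points in the authors' deposited table (chr10:109010001-109011000, adjusted p = 0.0430), across the start of a gene whose interior was higher in hippocampus at weeks 3 and 8. Ppfia3, a liprin-alpha scaffold, was at -10.4 points 0.019 kb from its start (chr7:45366001-45367000, adjusted p = 0.000963), the smallest adjusted p of the 32 windows in the authors' deposited table. That window also lies 0.891 kb from the coding gene Lin7b and within 10 kb of Snrnp70. The further Ppfia3 window 2.98 kb upstream, at -11.7 points in the authors' deposited table (chr7:45370001-45371000, adjusted p = 0.0822), overlaps an end of Lin7b. Stxbp6 was at -10.4 points in the authors' deposited table (chr12:45073001-45074000, adjusted p = 0.0177), 0.483 kb past its start.

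Sequence at the starts was compared with the calls. Among coding genes the 300-base promoters with such a lower window held a median of 22 CpG, against 13 CpG without one, and the share of genes with a lower window was 0.844% at 0 to 4 CpG, 7.54% at 5 to 14, 17.5% at 15 to 24 and 15.0% at 25 to 99 CpG. For the release genes it was 2 of 10 at 5 to 14 CpG, 3 of 13 (23.1%) at 15 to 24 and 2 of 16 (12.5%) at 25 to 99. The 7 release genes had a median of 19 CpG (8 to 28) and the other 32 a median of 21.5 CpG (6 to 54), so the medians stood in the other order. No release gene with a listed start fell in the class of 0 to 4 CpG. Promoters of members that are richest in CpG, such as Cadps2 with 54 and Syt9 with 49, had no window. The GC box GGGCGG, counted on both strands, was present in 34 of the 49 listed promoters of these 39 genes (69.4%), beside 46.7% of 21045 promoters of coding genes. CCAAT was present in 26.5% beside 38.5%, and the cyclic AMP response element TGACGTCA in 2.04% beside 2.26%. The GC box contains a CpG, and a match is only a run of letters.

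**Figure D3:**
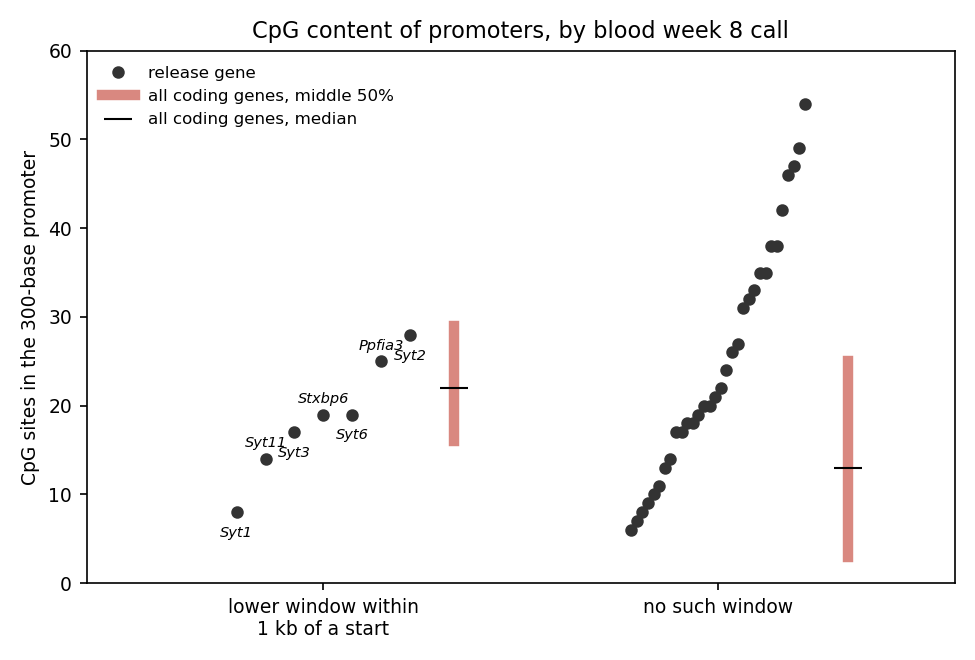
CpG sites per 300-base promoter (y axis) of the 39 release genes with a listed start (points), split by a lower blood week 8 window within 1 kb of a start. The red bars give the middle 50% and the black marks the median of all coding genes (22 CpG with such a window, 13 without). The 7 labelled genes lie between 8 and 28 CpG, inside the range of the 32 others.

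Of the 11 windows of blood at week 8 that lay over 1 kb from a start, 8 belonged to priming and active zone genes. These genes make up 5.534 Mb of the 9.444 Mb that the 49 genes span. Counting all their windows in this list, they had 1.63 per Mb, against 2.01 for the 49 genes and 2.57 for coding genes. Unc13a, the main Munc13 of excitatory terminals, was at -12.4 points 2.76 kb past its start in the authors' deposited table (chr8:71668001-71669000, adjusted p = 0.00492). That window also lies 7.38 kb from the coding gene Jak3, inside the 10 kb limit. Rims1, the best-known RIM scaffold, was at -13.4 points 89.2 kb inside the gene in the authors' deposited table (chr1:22716001-22717000, adjusted p = 0.0144). Cadps, which encodes the dense-core vesicle priming factor CAPS, had windows of -10.3 points deep in the gene (chr14:12575001-12576000, adjusted p = 0.0889) and -10.1 points 1.08 kb past its start (chr14:12821001-12822000, adjusted p = 0.0804) in the authors' deposited table. Ppfia2, another liprin-alpha gene, was at -10.5 points (chr10:106613001-106614000, adjusted p = 0.0618) and Erc2, the second ELKS gene, at -11.4 points 4.41 kb before its start (chr14:27617001-27618000, adjusted p = 0.0700) in the authors' deposited table. Syn2 was lower in blood as well, at -11.1 points in the authors' deposited table (chr6:115175001-115176000, adjusted p = 0.0699).

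The pair of higher windows belonged to Rims3 and Stxbp5, both more than 5 kb from a start. Rims3, a short RIM isoform gene, was at 11.3 points in a window 9.78 kb outside the gene in the authors' deposited table (chr4:120844001-120845000, adjusted p = 0.00980). Stxbp5 was at 10.5 points in the authors' deposited table (chr10:9823001-9824000, adjusted p = 0.0164). Sv2a, the vesicle glycoprotein that binds levetiracetam, was counted through a window of -11.9 points in the authors' deposited table (chr3:96172001-96173000, adjusted p = 0.00190) that lies 8.23 kb away and overlaps an end of the splicing factor gene Sf3b4.

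In blood at week 24 only Syn1 had a window, 2.04% of the 49 beside 1.25% of coding genes. Syn1, the X-linked synapsin, was higher by 18.2 points in the authors' deposited table (chrX:20908001-20909000, adjusted p = 0.0730), 11.9 kb past its start. Of this whole list 82.5% was higher.

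In 5 genes there were windows in both tissues, 10.2% of the 49 beside 1.94% of coding genes and 19.9% of those over 200 kb. They were 5 of the 7 members with a hippocampal window (71.4%) and 5 of the 20 with a blood window (25%). Over all coding genes these shares were 31.0% and 8.67%, and over coding genes longer than 200 kb 57.6% and 40.4%. In 4 of the 5 (Syt1, Stxbp5, Stxbp6 and Unc13c) the hippocampal and blood signs were opposite, and Syn2 was lower in each of its 3 lists. Among the 338 coding genes with a single direction in each tissue, 47.0% had opposite signs. The weeks matched across tissues for windows of Syt1 and Syn2 (week 8) and of Unc13c (week 3). They differed for Stxbp5 and Stxbp6, where tissue and age cannot be told apart.

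The closest pair lay in Stxbp5. The hippocampal window of week 24, at -10.7 points, and the blood window of week 8, at 10.5 points in the authors' deposited table, were separated by 1.00 kb in the middle of a gene of 146 kb. These were the only member windows within 5 kb of a window of another list (2 of 32, 6.25%, beside 2.99% of all 8961 windows). In Syn2 the hippocampal and blood windows of week 8, at -15.6 points and -11.1 points in the authors' deposited table, were 11.0 kb apart and both lower. In Syt1 the windows spanned from the start (blood, lower) to 58.1% of the body (hippocampus week 8, higher). The map of the 5 genes shows these positions to scale.

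**Figure D4:**
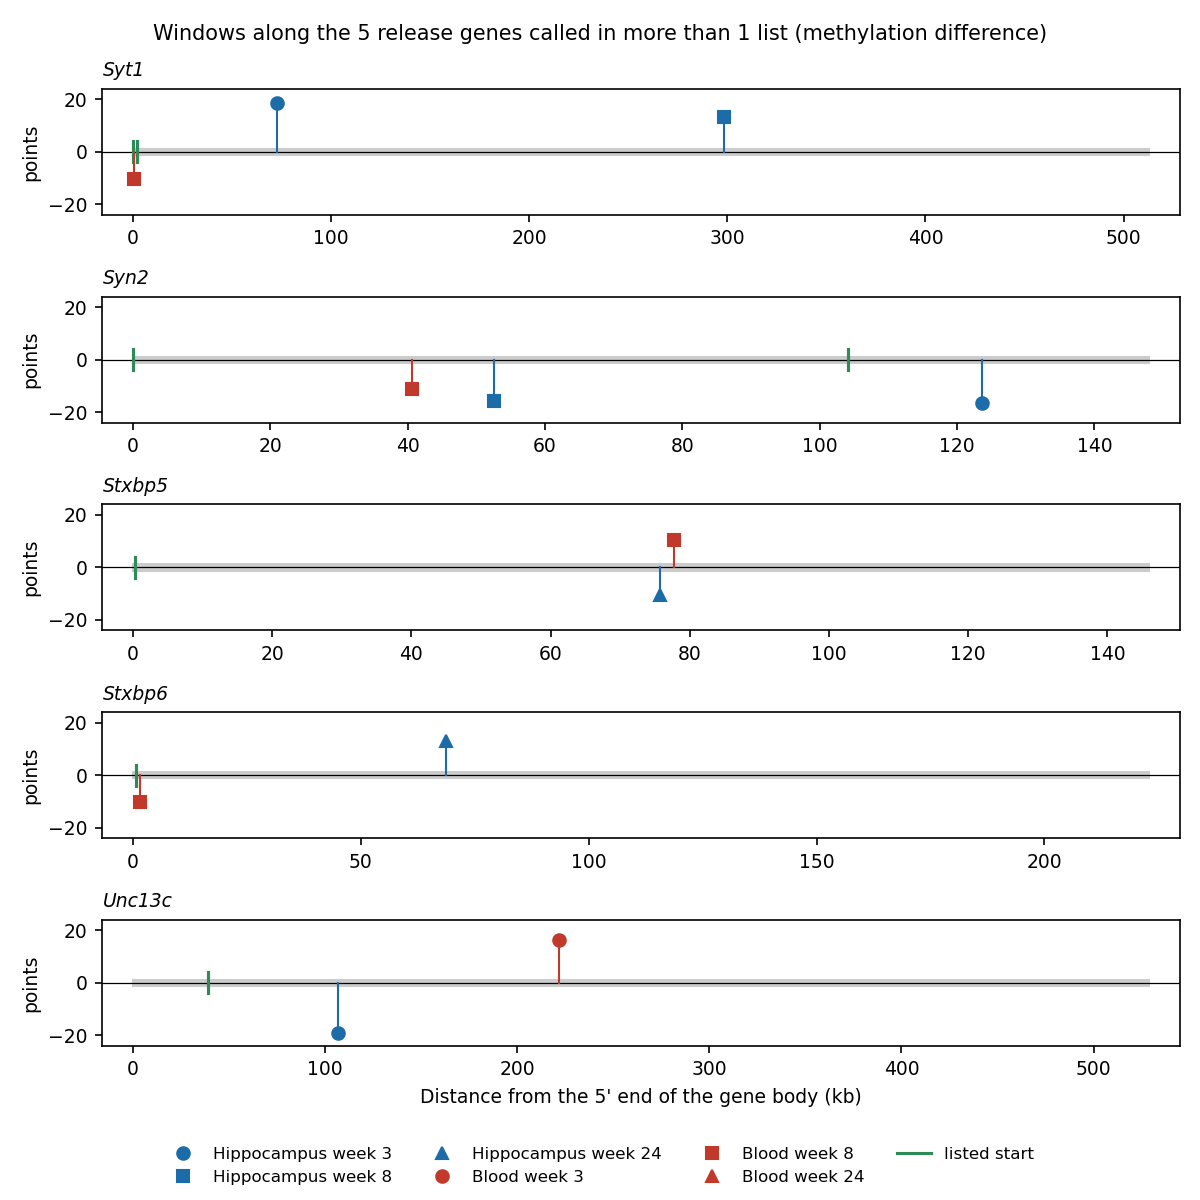
Positions of called windows along the 5 release genes with windows in more than 1 list: x axis, distance from the 5′ end of the gene body in kb. The y axis gives the methylation difference in points, grey bars are gene bodies, green ticks are listed transcript starts. In Stxbp5 a lower hippocampal window and a higher blood window lie 1.00 kb apart, and in Syn2 all 3 windows point down.

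Read by role, 6 of 13 calcium sensors, 10 of 16 priming and active zone genes, 4 of 10 vesicle genes and 2 of 10 SNARE genes had a window in some list, and for the first of these that was 46.2% and for the active zone genes 62.5%. Among coding genes 26.7% had one: 22.6% under 50 kb, 35.0% at 50 to 200 kb and 63.9% over 200 kb. Among the release genes the shares in these length classes were 36.8%, 31.2% and 71.4%. Over their span the calcium sensors had 6.47 windows per Mb, the vesicle genes 4.55, the SNARE genes 3.34 and the active zone genes 2.35. Coding genes had 4.22, but their density fell with length: 6.4 under 50 kb, 3.73 at 50 to 200 kb and 2.8 over 200 kb. In the release genes it was 10.1, 4.13 and 2.32 in these classes. The 13 calcium sensors span 1.391 Mb and the 16 active zone genes 5.534 Mb. Whether the roles differ beyond gene length was not tested. The 11 further calcium sensors had 3.85 windows per Mb. The longest member, Erc2 at 856 kb, had 1 window, outside its body, and Cadps2 at 578 kb had none. The members without a window were Syt4, Syt5, Syt7, Syt9, Syt10, Doc2a, Doc2b, Snap25, Stx1a, Vamp1, Vamp2, Stxbp5l, Cplx1, Cplx2, Nsf, Unc13b, Rimbp2, Bsn, Pclo, Ppfia1, Cadps2, Sv2b, Sv2c, Syp, Rab3a, Slc17a6 and Slc17a7. The member windows nearest the limit from within were those of Rims3 at 9.78 kb and Sv2a at 8.23 kb, and the nearest from without was 12.0 kb from Bsn, at 13.4 points in hippocampus at week 24 in the authors' deposited table. A window 13.5 kb from Stx1a stood at -12.5 points in blood at week 8, and one 13.8 kb from Rims1 at -18.2 points in hippocampus at week 8, in the authors' deposited table.

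The other presynaptic genes were taken from lists of SNARE assembly, further calcium sensors, active zone, vesicle membrane and vesicle endocytosis genes, 82 in all. Of these, 6 had a window in hippocampus at week 3 (7.32%, 1 higher and 5 lower windows), 2 at week 8 (2.44%, both higher) and 5 at week 24 (6.1%, 2 higher and 3 lower). Coding genes stood at 2.6%, 1.74% and 2.43% at these ages. In blood there were 3 at week 3 (3.66%, 1 higher and 2 lower), 18 at week 8 (22%, 1 higher and 18 lower windows) and 2 at week 24 (2.44%, 1 higher and 1 lower), beside 2.79%, 19.5% and 1.25% of coding genes. At week 3 in hippocampus the largest were Cask, an X-linked scaffold kinase, at 19.4 points, Sh3gl2, which encodes endophilin A1, at -17.8 points, and Rab27b at -16.2 points in the authors' deposited table. At week 8 they were Syt16 at 17.8 points and Mctp1, a C2-domain protein, at 12.4 points in the authors' deposited table. At week 24 Syt14 was at -17.0 points, Doc2g at -16.6 points and Mctp1 at -14.4 points in the authors' deposited table, and the other two windows of this age were higher, Rab27b at 12.99 points and Lin7a at 10.2 points. In blood Mctp1 was at -29.1 points, Stx3 at 16.8 points and Mctp2 at -11.6 points at week 3 in the authors' deposited table. The largest of blood at week 8 were Tspoap1, which encodes a RIM-binding protein, at -18.8 points, Eps15 at -14.4 points and Synj1, the phosphatase synaptojanin, at -14.1 points (adjusted p = 1.11e-05) in the authors' deposited table. At week 24 in blood Scamp5 was at -17.9 points and Dnm3, a dynamin gene, at 11.3 points in the authors' deposited table. A lower window within 1 kb of a start in blood at week 8 occurred in 5 of 62 of these genes with a listed start, 8.06%, beside the 10.1% of coding genes.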

How the data were processed

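DNA from hippocampus and blood was bisulfite-converted and sequenced, and mm10 with methylKit, Bismark, Trim Galore and FastQC is named per the submitters' processing notes. Not given in the sources used here are versions, coverage filter, test statistic and adjustment. The authors deposited p-values and adjusted p-values for 1 kb windows; in the list no adjusted p reaches 0.1 and no difference is smaller than 10 points. The deposited methylation difference, a signed score in percentage points, was taken as App-NLGF less wild type. The file has 0 columns for single libraries, so depth is unknown and no test across animals was made.

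Genes and transcript starts came from RefSeq on GRCm38.p6, whose chromosomes have the coordinates of mm10. All 49 symbols matched, and 39 genes had a listed start. Starts were needed for strand, so windows of Rims2, Syn3 and Syt12 have no distance to a start. Exons were not separated. Where a gene had several promoters, the one with a blood week 8 window, then the one with most CpG, was used. The 9 windows on unplaced scaffolds were left out of positions. Counts were made in Python 3.11.15 with pandas 2.3.3, and the assignment of windows was tested on simulated windows.

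The members, roles and other lists were chosen with earlier results of these data known. All members with a window were named, and of the other presynaptic genes the 3 largest windows per list. Shares are descriptions, with no test over members. Alternatives kept only adjusted p under 0.01 or differences of at least 15 points, used gene bodies alone or 2 kb, kept windows near no other coding gene, or left out windows within 1 kb of an end of a coding gene.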

Additional observations from a re-analysis of the deposited data

How the results depend on the processing

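Counts fell under stricter calls. With only windows at an adjusted p under 0.01, members with a window fell to 0 in hippocampus at weeks 3, 8 and 24, to 1 in blood at week 3 (Unc13c), to 8 in blood at week 8 and to 0 in blood at week 24. With only windows of at least 15 points they were 1 in hippocampus at week 8 (Syn2, so that higher minus lower windows was -1), 0 in hippocampus at week 24, 1 in blood at week 3 (Unc13c) and 1 in blood at week 8 (Syt11, so that higher minus lower was -1). The 5 members of hippocampus at week 3 were all counted at 15 points. Gene bodies alone, a limit of 2 kb, windows near no other coding gene, and windows away from the ends of coding genes left the number of members with a window within 1.5 times of that given in each of the 6 lists, with 11 to 13 in blood at week 8. Higher minus lower windows went from -1 to 0 in hippocampus at week 3 without windows near another coding gene, where Syn2 was lost, and from -15 to -9 in blood at week 8 without windows at the ends of coding genes. No alternative turned more higher windows into more lower ones or the reverse.

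No paired analysis was possible because the file holds called windows and no values per library, and no library was left out. Depth limits every statement on a gene without a window.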
